A study of Sus scrofa with 8 samples.

Results

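The Nodal and activin signaling pathway was examined through 10 of its genes in porcine induced pluripotent stem cells (piPSCs) that overexpress interferon regulatory factor 1 (IRF-1) and in their controls. The members were taken by symbol, as the rows of the count table whose Ensembl identifier is named NODAL, LEFTY2, ACVR1B, ACVR1C, ACVR2A, ACVR2B, SMAD2, SMAD3, SMAD4 or FOXH1 among the pig gene names. All 10 were found among the 24358 genes of the table, 14692 of which have a symbol.

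The study asked what raised IRF-1 does to the pluripotency of piPSCs, and sequenced polyadenylated RNA from 2 libraries of IRF-1 overexpressing cells (replicates 1 and 3) and 2 libraries of control cells (replicates 6 and 8). According to the study, the libraries came from DOX-hLIF-2i piPSCs of the domestic pig. These are embryonic fibroblasts with an OCT4-tdTomato reporter that were reprogrammed by lentiviral, doxycycline-inducible OSKM factors. According to the methods they were kept on feeder cells in N2/B27 medium with doxycycline, human LIF, porcine LIF conditioned medium, CHIR99021 (a GSK3 inhibitor) and PD0325901 (a MEK inhibitor), and depend on the doxycycline. The sample labels instead name an LCDMV culture system and PC-iPS cells, and this difference is not resolved here. The overexpressing cells carried PB-CAG-IRF1-Flag, a transposon in which the constitutive CAG promoter drives Flag-tagged IRF-1, and the control cells carried PB-CAG-Flag without the IRF-1 insert. Transfected cells of each group were selected with puromycin. Feeder cells were left behind by a plating step before RNA extraction. Which of the study's stable lines was used is not given in the sources used here. The anti-FLAG ChIP and input libraries were not analysed here.

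The genotype label reads overexpression for all 4 libraries, so it does not separate the groups. The groups used here follow the study's legend for the library names, and IRF1 itself was used to check them. IRF1 (ENSSSCG00000014277, chromosome 2, 134776124 to 134783819, minus strand) had 8206 and 5485 counts in overexpressing replicates 1 and 3, and 55 and 56 counts in control replicates 6 and 8. The libraries assigned to the overexpressing cells were both high, the assigned controls were both low, and the groups did not overlap. In CPM, which are counts relative to the library total as scaled by its TMM factor, IRF1 stood at 297 ± 47.1 (SD, n = 2) against 3.36 ± 0.225 (SD, n = 2).

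Nodal and the activins are secreted ligands of the TGF-β family. They bind type II receptors, which activate type I receptors, and these phosphorylate SMAD2 and SMAD3, which enter the nucleus with SMAD4 and act on target genes with DNA-binding partners such as FOXH1. The pathway is known for patterning the early embryo and inducing mesendoderm, and for holding human and epiblast-type pluripotent cells in the primed state.

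The libraries held 24923319 and 20858333 counts in the overexpressing cells and 15925429 and 17097669 in the controls, so depth differed in the same direction as the group. Mitochondrial genes made up 8.62% and 7.57% of the counts in the overexpressing libraries against 6.29% and 6.68% in the controls, again without overlap. A floor of 3 counts corresponded to between 0.120 and 0.188 CPM, and floors and counting intervals cover counting error only. Genes were tested with edgeR and called if the adjusted p was under 0.05 and the log2 fold change was 1 or more in absolute value. Nothing in the labels says that replicates came from separate cultures, so p-values measure only the spread between these samples, which may be technical. For a single value, an exact permutation test of 2 against 2 libraries has 0.333 as its smallest two-sided p, and shares and summed levels are given as descriptions. In bulk RNA, fewer cells of a type and less RNA per cell cannot be told apart.

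Among the 10 members, the type I receptor gene ACVR1C rose and the SMAD partner FOXH1 fell in the IRF-1 overexpressing cells. SMAD3 was higher by less than the fold minimum, and NODAL was higher in both overexpressing libraries without passing the adjusted p. The other receptor genes, SMAD2 and SMAD4 did not pass the test, and LEFTY2 was near the floor. Of the 10 members, 9 were deep enough to be tested, each through libraries of both groups. By the call rule 1 of the 9 was higher, against 8.61% of the 13250 genes tested, and 1 was lower, against 10.6% of all genes. Among genes deep enough in both groups, as the 9 were, 6.48% were higher and 9.31% lower. With no fold minimum 2 members were higher (13.9% of all genes) and 1 was lower (15.5%). The CPM values of the groups did not overlap for 8 of the 9, where 68.6% of all genes tested did not overlap. The members' median log2 fold change was 0.44, compared with -0.0016 for all genes tested. With so few members, these counts lie near the background shares, and the description that follows concerns single genes.

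**Figure D1:**
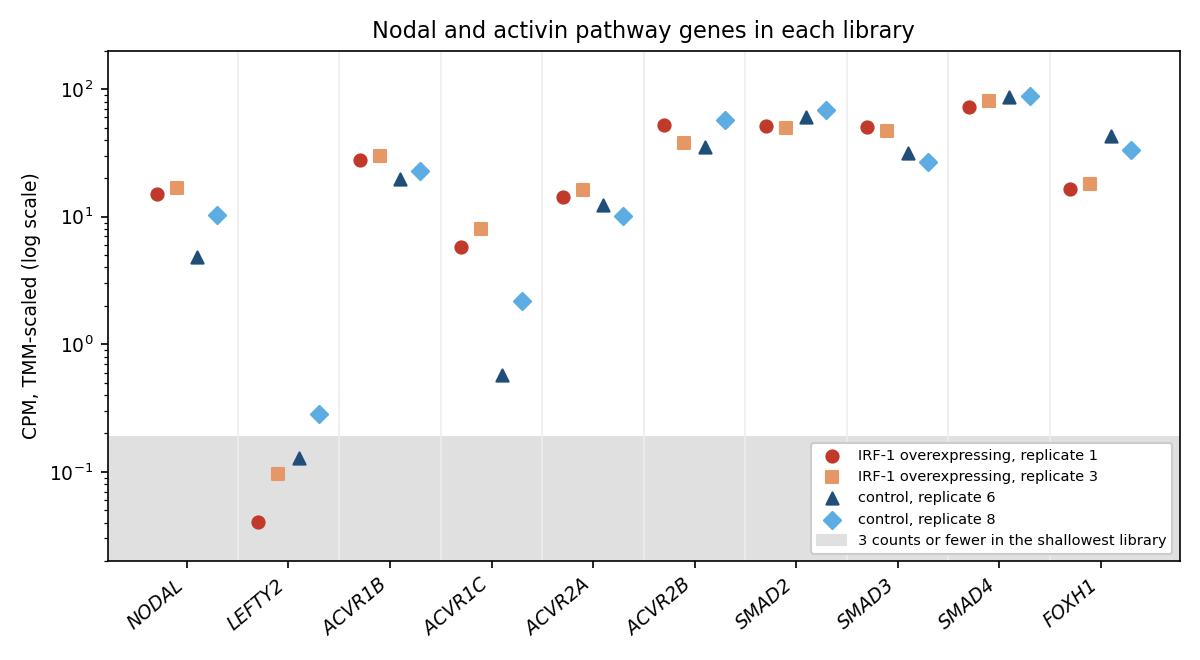
Level of each of the 10 members in each of the 4 libraries, in TMM-scaled CPM on a log axis; each symbol is 1 library and the grey band marks levels of 3 counts or fewer in the shallowest library. ACVR1C and NODAL stand higher in the overexpressing libraries with the control libraries apart from each other, FOXH1 stands lower, and LEFTY2 lies at or near the band.

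Of the ligand genes, NODAL encodes Nodal itself (ENSSSCG00000039399, chromosome 14, 73351092 to 73360688, minus strand). It had 374 and 351 counts in overexpressing replicates 1 and 3, which is 15.1 and 16.9 CPM, and 76 and 180 counts in control replicates 6 and 8, which is 4.86 and 10.3 CPM. The overexpressing libraries lay close together above both controls, while the controls themselves lay far apart, replicate 6 being the lower. The groups did not overlap. The log2 gap between the control libraries was 1.08, and 6.10% of all genes tested had a larger gap there. Between the overexpressing libraries the gap was 0.16. The mean was 16.0 ± 1.29 CPM (SD, n = 2) against 7.58 ± 3.84 CPM (SD, n = 2), a log2 fold change of 1.07 with a standard error of 0.35 that did not pass (edgeR quasi-likelihood test, Benjamini-Hochberg adjusted p = 0.0540).

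The size of the NODAL difference depended on the control library. With control replicate 6 left out the log2 fold change was 0.63, and with control replicate 8 left out it was 1.72. It passed the call rule in 4 of 14 alternative analyses, namely with no filter, with DESeq2, with limma-voom and without control replicate 8, and the adjusted p ranged from 0.00172 to 0.936 over the 14. The highest of these came from the test against the fold minimum itself. NODAL was higher in the overexpressing cells in all 14.

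LEFTY2 encodes a secreted inhibitor of Nodal that is itself induced by the pathway (ENSSSCG00000032299, chromosome 10, 13849052 to 13853438, minus strand). Only 1 and 2 counts were found in the overexpressing libraries, and 2 and 5 counts in control replicates 6 and 8. The counts are at or near the floor in every library, and a difference was not detectable at this depth. Scaled to library totals, the ratio of control to overexpressing cells was 3.23, with a 95% counting interval (exact binomial) from 0.738 to 19.4 that includes 1.

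Among the receptor genes, ACVR1C encodes the type I receptor ALK7, which serves Nodal and several activins (ENSSSCG00000015873, chromosome 15, 64455989 to 64529107, minus strand). It had 143 and 167 counts in overexpressing replicates 1 and 3, or 5.76 and 8.03 CPM. In the controls it had 9 counts in replicate 6 and 38 in replicate 8, or 0.576 and 2.17 CPM. The value of replicate 6 was only just above the filter minimum, which is 0.527 CPM before TMM scaling. Both overexpressing libraries were above both controls with no overlap, and the controls again differed, replicate 6 being the lower. The gap between the controls was 1.92 on the log2 scale, a size exceeded by 1.11% of all genes tested. The mean rose from 1.37 ± 1.13 CPM (SD, n = 2) to 6.89 ± 1.61 CPM (SD, n = 2). The log2 fold change was 2.30 with a standard error of 0.55 (edgeR quasi-likelihood test, Benjamini-Hochberg adjusted p = 0.0178), or 4.93-fold.

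The direction of ACVR1C was the same with each library left out, but its size was not. Leaving out control replicate 6 gave a fold of 3.16, and leaving out control replicate 8 gave 11.9. The call was lost without overexpressing replicate 3 and when the fold change was tested against the minimum itself (glmTreat), and over all 14 alternatives the adjusted p ranged from 9.69e-06 to 0.0964.

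ACVR1B encodes ALK4, the main type I receptor for activin and Nodal (ENSSSCG00000000233, chromosome 5, 17314276 to 17350723, plus strand). Its level was 27.9 and 30.1 CPM in the overexpressing libraries and 19.8 and 22.9 CPM in the controls. The overexpressing libraries were the higher ones and the groups did not overlap, but the log2 fold change of 0.44 with a standard error of 0.18 did not pass (edgeR quasi-likelihood test, Benjamini-Hochberg adjusted p = 0.103).

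The type II receptor genes are ACVR2A (ENSSSCG00000015669, chromosome 15, 4173797 to 4259962, minus strand) and ACVR2B (ENSSSCG00000011257, chromosome 13, 23237464 to 23267373, plus strand), whose products bind the ligand and activate the type I receptor. ACVR2A stood at 14.3 and 16.2 CPM in the overexpressing libraries and at 12.3 and 10.1 CPM in control replicates 6 and 8. The groups did not overlap, and the log2 fold change of 0.44 (standard error 0.23) did not pass (edgeR quasi-likelihood test, Benjamini-Hochberg adjusted p = 0.183). Of the exon bases of ACVR2A, 37.7% are shared with ORC4 on the opposite strand. ORC4 had a log2 fold change of -0.24 and was not called, and with the strand setting of the counting not given, reads of the shared bases cannot be assigned.

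ACVR2B had 52.1 and 37.7 CPM in overexpressing replicates 1 and 3, and 35.3 and 56.9 CPM in control replicates 6 and 8. Here the groups overlapped, since the lowest and the highest library were both controls. The log2 fold change was -0.04 with a standard error of 0.25 (edgeR quasi-likelihood test, Benjamini-Hochberg adjusted p = 0.926), and its sign turned when overexpressing replicate 3 or control replicate 8 was left out, at 0.18 and 0.36.

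SMAD2 and SMAD3 encode the receptor-regulated SMADs of the pathway. SMAD3 (ENSSSCG00000004952, chromosome 1, 164998457 to 165124449, plus strand) had 1253 and 975 counts in the overexpressing libraries, compared with 494 and 468 in control replicates 6 and 8, or 50.4, 46.9, 31.6 and 26.8 CPM in that order. The overexpressing libraries were both high, the controls were both low and the groups did not overlap. The mean was 48.7 ± 2.52 CPM (SD, n = 2) against 29.2 ± 3.44 CPM (SD, n = 2). Its log2 fold change of 0.74 with a standard error of 0.16 passed the adjusted p but not the fold minimum (edgeR quasi-likelihood test, Benjamini-Hochberg adjusted p = 0.0131). Without overexpressing replicate 1 the adjusted p was no longer passed, over a range from 0.00144 to 1.00 in the 14 alternatives, the highest of these being the test against the fold minimum.

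For SMAD2 (ENSSSCG00000004505, chromosome 1, 97415716 to 97511880, minus strand) the values lay on the other side, with 51.4 and 49.6 CPM in the overexpressing libraries and 60.8 and 68.7 CPM in the controls. The groups did not overlap, and the log2 fold change of -0.36 (standard error 0.14) did not pass (edgeR quasi-likelihood test, Benjamini-Hochberg adjusted p = 0.101). SMAD4, the common partner of the receptor-regulated SMADs (ENSSSCG00000004524, chromosome 1, 100514791 to 100632822, plus strand), had 73.1 and 80.2 CPM in the overexpressing libraries and 87.2 and 89.1 CPM in the controls. Its groups did not overlap either, and its log2 fold change of -0.20 (standard error 0.14) did not pass (edgeR quasi-likelihood test, Benjamini-Hochberg adjusted p = 0.308). The 3 SMAD genes lie on chromosome 1, with 3002911 bases from the end of SMAD2 to the start of SMAD4. SMAD4 shares 2.59% of its exon bases with ELAC1 on the same strand, whose log2 fold change was -0.26 and which was not called.

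FOXH1 encodes the forkhead protein that recruits the SMAD complex to Nodal-responsive enhancers (ENSSSCG00000005902, chromosome 4, 321541 to 325189, plus strand). It had 413 and 377 counts in the overexpressing libraries, compared with 671 and 580 in control replicates 6 and 8, although the control libraries were the shallower ones. In CPM the values were 16.6 and 18.1 against 42.9 and 33.2. The overexpressing libraries were both low and close together, the controls were both high, and the groups did not overlap. The mean fell from 38.1 ± 6.92 CPM (SD, n = 2) to 17.4 ± 1.06 CPM (SD, n = 2). The log2 fold change was -1.13 with a standard error of 0.19 (edgeR quasi-likelihood test, Benjamini-Hochberg adjusted p = 0.00466), which is 2.19-fold lower.

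FOXH1 overlaps KIFC2, a kinesin gene on the opposite strand, over 417 of its 1853 exon bases. KIFC2 had 616 and 541 counts in the overexpressing libraries, compared with 1281 and 706 in the controls. KIFC2 was thus low and high in the same libraries as FOXH1, with its controls further apart, and was itself called lower, at a log2 fold change of -1.27 with a standard error of 0.30 (edgeR quasi-likelihood test, Benjamini-Hochberg adjusted p = 0.0174). The part of reads from the shared bases in either value was not tested. Without control replicate 6 the FOXH1 log2 fold change was -0.93, under the fold minimum, and the call was also lost in the test against that minimum.

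**Figure D2:**
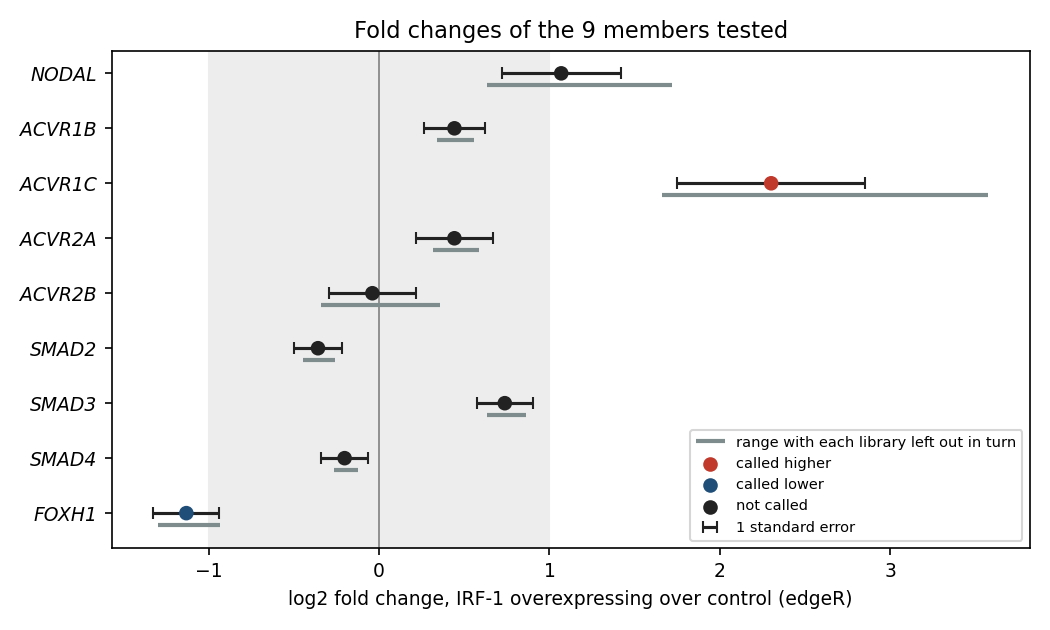
Log2 fold change (IRF-1 overexpressing over control, edgeR) of the 9 members tested, with bars of 1 standard error; the line under each point spans the values with each of the 4 libraries left out in turn, and the shaded band marks changes under the fold minimum of 1. The values for ACVR1C span 1.66 to 3.57 and those for NODAL 0.63 to 1.72, while those for SMAD3 span 0.63 to 0.86 and those for ACVR2B cross 0.

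Levels were compared between genes per length, in TPM, which are counts per exon length relative to their sum over the library. In the control cells FOXH1 had the highest TPM of the members, at 53.5 ± 6.84 (SD, n = 2), followed by ACVR2B at 35.2 ± 13.5 (SD, n = 2) and SMAD4 at 24.8 ± 1.72 (SD, n = 2). Below them by TPM came SMAD2 (17.2), SMAD3 (12.9), ACVR1B (12.4), NODAL (6.11), ACVR2A (4.82), ACVR1C (0.665) and LEFTY2 (0.499). The library ranges of 4 of the 9 neighboring pairs in this order overlapped, namely ACVR2B with SMAD4, SMAD3 with ACVR1B, NODAL with ACVR2A and ACVR1C with LEFTY2. The controls did not separate NODAL from ACVR2A. The levels and ranks of FOXH1 and ACVR2A are uncertain in both groups because of the exon bases they share with KIFC2 and ORC4.

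The order by TPM differed in the IRF-1 overexpressing cells. ACVR2B led at 31.4 ± 6.81 TPM (SD, n = 2), with FOXH1 second at 22.7 TPM. SMAD3 and SMAD4 followed at 19.9 TPM each, then ACVR1B (15.5), SMAD2 (12.4), NODAL (11.7), ACVR2A (6.09), ACVR1C (3.02) and LEFTY2, which was near the floor. Here 2 of the 9 neighboring pairs overlapped, SMAD3 with SMAD4 and SMAD2 with NODAL. SMAD3 stood above SMAD2 here, and NODAL stood level with SMAD2.

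Shares of TPM within pairs of related genes show the balance per library. SMAD3 made up 62.1% and 61.2% of the TPM of SMAD2 and SMAD3 together in overexpressing replicates 1 and 3, and 46.4% and 39.4% in control replicates 6 and 8. SMAD3 was thus the larger part in both overexpressing libraries and the smaller part in both controls. ACVR1C made up 14.5% and 17.9% of the TPM of ACVR1B and ACVR1C in overexpressing replicates 1 and 3, but 2.33% and 7.23% in the controls. ACVR1B remained the larger part in every library. The share of ACVR2B in the TPM of ACVR2A and ACVR2B was 86.4% and 80.3% against 83.4% and 90.8%, and these values overlapped, with the same limit on ACVR2A.

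The wider pathway was followed through 53 further genes in lists of ligands, secreted antagonists, receptors and coreceptors, intracellular regulators, and targets. Of these, 47 had a named identifier and 35 could be tested. The filter needs 2 libraries. INHBB, PMEPA1 and TGFB3 passed it only through the overexpressing libraries and WNT3 only through the controls. INHBB, PMEPA1 and WNT3 were each higher there, while the groups of TGFB3 overlapped, at a log2 fold change of 0.27. The differences of these genes are not read as results. Of the other 31, which passed it in both groups, 4 rose and 4 fell by the call rule in the IRF-1 overexpressing cells, beside 6.48% and 9.31% of all genes that passed it in both groups. These shares are also the background of the single lists that follow. Of the 47, 10 had no more than 3 counts in any library. The 31 genes had a median log2 fold change of 0.00019. The genes that rose were INHBA, BAMBI, SKIL and LHX1, and those that fell were FST, FSTL3, TGFBR3 and SMURF1.

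Among the ligands and their convertases, 1 of the 6 genes that passed the filter in both groups rose, with a median of 0.09. INHBA, which encodes the subunit of activin A, had 186 and 180 counts in the overexpressing libraries, compared with 34 and 10 in control replicates 6 and 8. The 10 counts of control replicate 8 were only just above the filter minimum. Both overexpressing libraries were high and alike, and control replicate 8 was the lowest, the reverse of the order of the controls for NODAL and ACVR1C. In INHBA the mean rose from 1.37 ± 1.13 CPM (SD, n = 2) to 8.07 ± 0.825 CPM (SD, n = 2), a log2 fold change of 2.57 with a standard error of 0.54 (edgeR quasi-likelihood test, Benjamini-Hochberg adjusted p = 0.0107). Leaving out control replicate 6 gave a fold of 14.0 and leaving out control replicate 8 gave 3.72, while the call was lost in the test against the fold minimum.

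INHBB, which encodes the subunit of activin B, was scarce, with 27 and 14 counts in the overexpressing libraries, compared with 3 and 2 in the controls, and it passed the filter only through the overexpressing cells. The overexpressing libraries were the higher ones, but the controls were at the floor. Since it entered the test through the group in which it is high, its difference is not read as a result. Its call was lost in 6 of 13 alternatives, among them DESeq2 and each library left out. By TPM the most abundant ligand was TGFB2, with 36.1 and 43.2 TPM in the overexpressing libraries and 47.7 and 30.5 TPM in the controls, and its groups overlapped. GDF3, INHBC, INHBE and MSTN had no more than 3 counts in any library. All 1032 exon bases of INHBE are shared with GLI1 on the same strand, so its counts do not show whether it is absent.

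Of 4 secreted antagonists, 2 were tested and both fell, with a median of -2.07. FST encodes follistatin, which binds and blocks activins, and had 982 and 1965 counts in overexpressing replicates 1 and 3 and 5368 and 4381 counts in control replicates 6 and 8. Both controls were far above both overexpressing libraries, which differed from each other, replicate 1 being the lower. The mean went from 297 ± 65.8 CPM (SD, n = 2) in the controls to 67.0 ± 38.8 CPM (SD, n = 2), a log2 fold change of -2.15 with a standard error of 0.37 (edgeR quasi-likelihood test, Benjamini-Hochberg adjusted p = 0.00497). The fall was 4.44-fold, 3.11-fold without overexpressing replicate 1 and 7.48-fold without overexpressing replicate 3, the smallest and largest values on leaving out a library.

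FSTL3, a follistatin-like activin inhibitor, had 67 and 57 counts in the overexpressing libraries, compared with 203 and 149 in the controls. Its overexpressing libraries were alike at 2.70 and 2.74 CPM, below both controls at 13.0 and 8.52 CPM. FSTL3 had a log2 fold change of -1.98 with a standard error of 0.33 (edgeR quasi-likelihood test, Benjamini-Hochberg adjusted p = 0.00399). Both calls held in all 14 alternatives. By TPM, FST was the most abundant antagonist in every library, at 91.8 and 222 TPM in the overexpressing libraries and 834 and 657 TPM in the controls. CER1, a Nodal antagonist, had no count in any library.

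Of 5 receptor and coreceptor genes tested, 1 rose and 1 fell, with a median of -0.36. BAMBI, a pseudoreceptor that lacks the kinase domain and dampens TGF-β family signals, had 629 and 536 counts in the overexpressing libraries, compared with 181 and 225 in the controls. The groups were apart and the libraries within each were alike. BAMBI had a log2 fold change of 1.06 with a standard error of 0.19 (edgeR quasi-likelihood test, Benjamini-Hochberg adjusted p = 0.00555), close to the fold minimum. Without control replicate 6 it was 0.99, and the call was lost there and in the test against that minimum. TGFBR3, or betaglycan, a coreceptor for TGF-β and inhibin, had 242 and 226 counts in the overexpressing libraries, compared with 509 and 599 in the controls. It was low in both overexpressing libraries, at a log2 fold change of -1.70 with a standard error of 0.19 (edgeR quasi-likelihood test, Benjamini-Hochberg adjusted p = 0.000891), and was called in all 14 alternatives. TGFBR1, the type I receptor for TGF-β and the most abundant of the list by TPM, had 37.3 and 42.9 TPM against 59.8 and 76.7 TPM. Its log2 fold change of -0.65 passed the adjusted p but not the fold minimum (edgeR quasi-likelihood test, Benjamini-Hochberg adjusted p = 0.0167). The groups of TGFBR1 did not overlap.

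Intracellular regulators numbered 16, all tested. Of the 15 that passed the filter in both groups 1 rose and 1 fell, with a median of -0.02. PMEPA1, a TGF-β-induced membrane protein that sequesters SMAD2 and SMAD3, had 240 and 105 counts in overexpressing replicates 1 and 3 and 6 and 12 counts in control replicates 6 and 8. Both overexpressing libraries were well above the controls, and the libraries of each group differed. The mean was 7.35 ± 3.26 CPM (SD, n = 2) against 0.535 ± 0.214 CPM (SD, n = 2). Only 1 control library reached the filter, so PMEPA1 entered the test through the group in which it is high, and its difference is not read as a result.

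SKIL encodes SnoN, a repressor of SMAD-driven transcription. It had 66.3 and 39.4 CPM in overexpressing replicates 1 and 3 and 20.9 and 26.2 CPM in the controls. The groups did not overlap, but replicate 1 carried much of the difference. SKIL had a log2 fold change of 1.16 with a standard error of 0.26 (edgeR quasi-likelihood test, Benjamini-Hochberg adjusted p = 0.0137), and without overexpressing replicate 1 it was 0.75 and not called, as also in the test against the fold minimum.

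SMURF1, a ubiquitin ligase that targets SMADs and receptors, had 6.80 and 7.79 CPM in the overexpressing libraries and 25.9 and 13.1 CPM in control replicates 6 and 8. Its controls were both higher but apart from each other. This gave SMURF1 a log2 fold change of -1.42 with a standard error of 0.34 (edgeR quasi-likelihood test, Benjamini-Hochberg adjusted p = 0.0172), and the call was lost without control replicate 6, at -0.85, without overexpressing replicate 1, at -1.31, and in the test against the fold minimum. The regulator with the highest TPM, DRAP1, which binds FOXH1, had 247 and 299.9 TPM against 365 and 229 TPM, and its groups overlapped. It shares 586 of its 1202 exon bases with C11orf68 on the opposite strand, so its level and rank are uncertain.

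Of the targets, 4 of 10 genes with an identifier could be tested, and 3 passed the filter in both groups. Of these 1 rose, with a median of 0.31. The mesendoderm targets EOMES, FOXA2, GSC, MIXL1 and TBXT had no more than 3 counts in any library, so no fold change is given. NANOG had 8 and 11 counts in the overexpressing libraries, compared with 5 and 9 in control replicates 6 and 8, and did not reach the filter. LHX1, a LIM homeobox gene of the early mesendoderm that is also used in later neural and kidney development, had 315 and 101 counts in overexpressing replicates 1 and 3 and 27 and 17 in the controls. Both overexpressing libraries were high, replicate 1 the more so. This gave LHX1 a log2 fold change of 2.71 with a standard error of 0.55 (edgeR quasi-likelihood test, Benjamini-Hochberg adjusted p = 0.00921), and without overexpressing replicate 1 it was 1.86 and not called.

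WNT3, a Wnt ligand of the early embryo, had 11 and 12 counts in the overexpressing libraries, compared with 47 and 37 in the controls. Its overexpressing libraries were both low, and only 1 of them reached the filter. WNT3 entered the test through the controls, where it is high, and its difference is not read as a result. CDKN2B, a TGF-β-responsive cell cycle inhibitor and the target with the highest mean TPM, had 9.36 and 7.72 TPM against 7.90 and 8.92 TPM, and its groups overlapped.

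**Figure D3:**
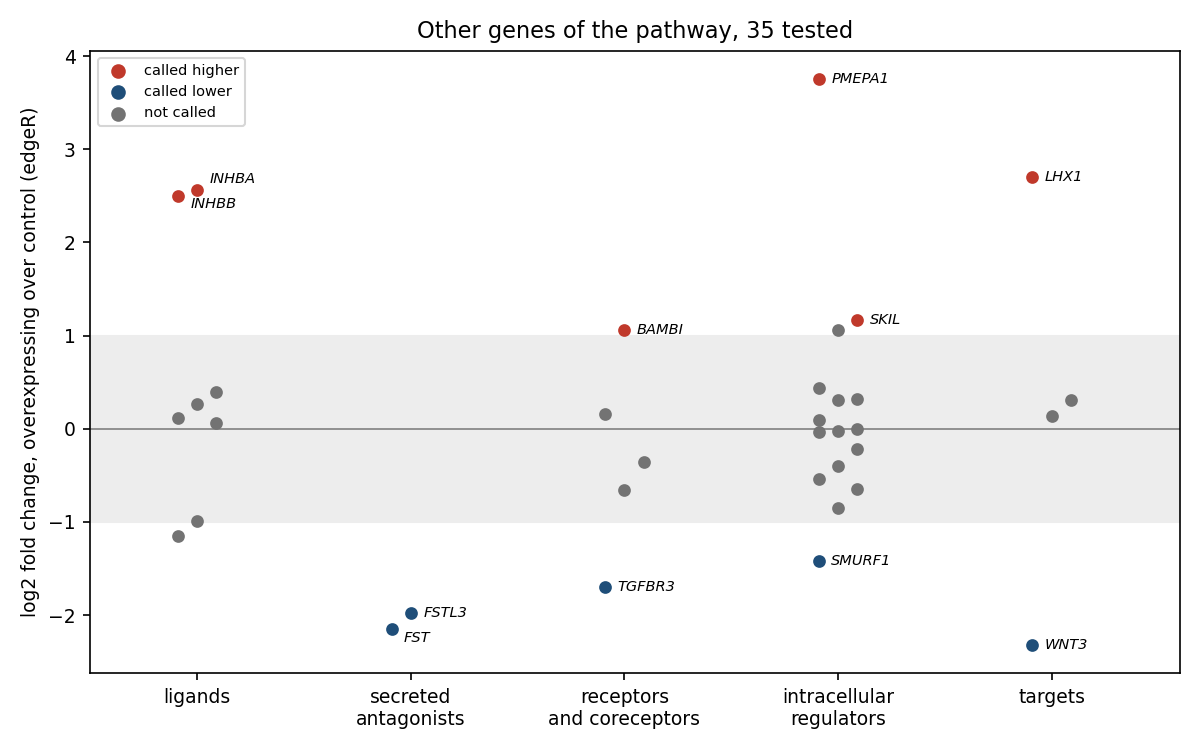
Log2 fold change (IRF-1 overexpressing over control, edgeR) of the 35 wider pathway genes tested, by list; each point is 1 gene, spread sideways for legibility, and the shaded band marks changes under the fold minimum of 1. The secreted antagonists FST and FSTL3 lie at -2.15 and -1.98, and the ligand INHBA at 2.57, while INHBB, PMEPA1 and WNT3 passed the filter only through the group in which they are high.

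Marker genes of several cell types differed between the same groups. Of 12 trophoblast markers, 8 were tested. DAB2 passed the filter only through the controls, where it is high, and of the other 7 genes 1 rose and 4 fell, where 6.48% and 9.31% of all genes that passed in both groups did, with a median log2 fold change of -2.61. Over the whole list the summed level was 210.0 and 756 TPM in overexpressing replicates 1 and 3 and 10726 and 7070.2 TPM in control replicates 6 and 8. The sum was dominated by KRT8, at 150.3 and 618 TPM against 7552 and 5086 TPM, while CDX2, ELF3, HAND1 and KRT7 had no more than 3 counts in any library. The list did not move as a whole. TFAP2A, named here after its values were seen, had 31.0 and 42.8 CPM in overexpressing replicates 1 and 3 and only 2.88 and 2.69 CPM in control replicates 6 and 8, and was called higher. GATA2 and GATA3, also named after their values were seen, overlapped between the groups. The part of these markers in the pathway results was not tested.

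Of 12 neural markers, 10 had an identifier and 9 were tested. NEUROG1 passed the filter only through the overexpressing libraries and PAX6 only through the controls, each being higher there, and of the other 7 genes 5 rose and 1 fell (6.48% and 9.31% of all genes that passed in both groups), with a median of 1.69. The summed level of all neural markers with an identifier was 801 and 387 TPM in overexpressing replicates 1 and 3 and 149.6 and 153 TPM in the controls, and the gene with the highest mean TPM over all libraries was STMN2, at 344 and 165 TPM against 80.0 and 90.6 TPM. TUBB3, named here after its values were seen, stood slightly above it in overexpressing replicate 1, at 347 TPM. Replicate 1 was the higher of the overexpressing libraries in this sum, as it was for SKIL and LHX1. The neural gene that fell was NES, also named after its values were seen, at 7.12 and 7.17 TPM against 39.5 and 24.3 TPM. No neural marker with an identifier was at the floor in all libraries. The part of neural expression in the pathway results was not tested.

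The pluripotent cell type of the labels was checked with 16 markers, of which 8 had an identifier and 5 were tested. Of these 3 fell, against 9.31% of all genes that passed the filter in both groups, with a median of -1.34. Their summed level was 884 and 999.8 TPM in the overexpressing libraries and 2347 and 2058 TPM in the controls, led by LIN28A at 638 and 735 TPM against 2061 and 1680.0 TPM. The list did not move as a whole. ESRRB and CDH1, named here after their values were seen, were also called lower, at log2 fold changes of -4.19 and -2.25. DNMT3B and EPCAM, also named after their values were seen, were higher at 0.27 and 0.21 and not called. KLF17 and PRDM14 were at 3 counts or fewer in every library, and NANOG, which is also on the target list, was scarce as given above. The genes of this list without an identifier, POU5F1 and SOX2 among them, were not analysed here.

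Of 15 fibroblast and feeder markers, 13 had an identifier and 9 were tested. DCN and PDGFRA passed the filter only through the controls and TWIST2 only through the overexpressing libraries, and of the other 6 genes 2 rose and 2 fell (6.48% and 9.31% of all genes that passed in both groups), with a median of -0.59. The whole list summed to 538 and 433 TPM in the overexpressing libraries and to 630.4 and 643 TPM in the controls, mostly as VIM at 382 and 319.5 TPM against 426 and 447 TPM, and LUM was at the floor. Of 9 endoderm markers, 7 had an identifier and 2 were tested, of which 1 fell, where 9.31% of all genes that passed in both groups did. They summed to 28.1 and 45.8 TPM against 57.9 and 56.4 TPM, led by GATA6, whose groups overlapped, and AFP, FOXA2 and TTR were at the floor. The endoderm gene that fell was APOA1, named here after its values were seen, at 2.10 and 5.60 TPM against 25.1 and 23.1 TPM. The part of these cell types in the pathway results was not tested. KRT8, DAB2, TFAP2C, LIN28A and PDGFRA were singled out by the study in these libraries, so the lists that hold them are not independent evidence of a direction.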

How the data were processed

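RNA-seq of 4 libraries was used. Per the study's methods and the submitters' processing notes, reads were trimmed with trim_galore, mapped to Sus scrofa 11.1 with HISAT2 2.0.4 and counted on exons with featureCounts 1.6.4. The authors deposited these as raw counts per gene, next to an exon length in bases, which served here for TPM. Annotation release, strand setting and handling of multi-mapped reads are not given in the sources used here, so counts of overlapping genes are uncertain.

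Counts were analysed with edgeR 4.0.16 in R 4.3.3, using TMM factors from 0.982 to 1.02, filterByExpr (about 10 counts in 2 libraries), quasi-likelihood tests and Benjamini-Hochberg adjustment over 13250 genes, and were tested on simulated data. Standard errors are the log2 fold change divided by the square root of F. Replicate numbers are not shared between groups, so libraries were not paired. The text names every member, IRF1, each called gene of the pathway lists, and from every list the gene of highest mean TPM and those at the floor or past the filter in 1 group only. Members and lists were chosen with earlier results of these data known. Alternatives used DESeq2 1.42.0, limma-voom (limma 3.58.1), glmTreat, other scalings, filters and thresholds, and each library left out. Figures were drawn with Python 3.11.15, pandas 2.3.3 and matplotlib 3.10.9. Promoter and protein sequences, and listed genes with no named identifier, were not analysed here.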

Additional observations from a re-analysis of the deposited data

How the results depend on the processing

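The comparisons of the members, IRF1 and the wider pathway genes were repeated under 14 alternatives. Those for IRF1 and the wider pathway were added after the data had been seen. Marker genes and the genes that share exon bases with members were not repeated in this way. For the 9 members tested, 115 of 126 log2 fold changes kept their direction and side of the call rule, 4 were no longer called, 5 became called and 2 changed sign. For the 35 wider pathway genes these numbers were 441 of 487, 17, 12 and 17, and IRF1 was called in all 14. In edgeR with all libraries 6 of these 35 genes were called higher and 5 lower. Among those called were INHBB, PMEPA1 and WNT3, which passed the filter only through the group in which they are high and are not read as results. The counts of wider pathway genes below do not leave them out. Other scalings (RLE, upper quartile, library totals alone) changed no member's call. INHBB, LDLRAD4 and TGFB3 gave no value with a minimum mean of 1 CPM.

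Members called higher numbered 2 instead of 1, by addition of NODAL, with no filter, with DESeq2 and with limma-voom, and 2, by addition of SMAD3, with no fold minimum. With no fold minimum 1842 genes were higher and 10 wider pathway genes, WNT3 among them, were lower instead of 5, since fewer conditions applied. With glmTreat, which tests against the minimum itself, 611 genes were higher and 603 lower. The wider pathway then held 2 higher, PMEPA1 among them, and 3 lower. No member passed it, so the count was 0 in each direction. At an unadjusted p under 0.05 glmTreat gave 1 member higher and 0 lower. With the fold minimum kept, edgeR, DESeq2 and limma-voom each gave 2 and 1 at that p. With no fold minimum edgeR gave 4 and 2.

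When single libraries were omitted, which leaves 1 library in a group that is assumed to vary like the other group, genes called higher numbered 756 to 1156 and genes called lower 874 to 1548. Members called higher numbered 0 to 2 and members called lower 0 to 1. Wider pathway genes called higher numbered 3 to 5 and called lower 3 to 7. The lowest count of genes came without overexpressing replicate 1, no member was called higher without overexpressing replicate 3, and none lower without control replicate 6. Without overexpressing replicate 3 the log2 fold change of ACVR1C was still 2.05. Without control replicate 6 that of FOXH1 was -0.93, under the fold minimum.

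Some genes changed sign, all of them uncalled in edgeR with all libraries, and the cause was not tested. Their values where they did so, with their extremes on omitting a library, were these. PPM1A was -0.0076 with library totals alone and -0.0014 with limma-voom, where DRAP1 was 0.026. Without overexpressing replicate 1, CDKN2B was -0.0072, DRAP1 0.12, LDLRAD4 -0.10, PPM1A 0.042, TGFB1 -1.12 and TGFBR2 -0.83. Without overexpressing replicate 3, ACVR2B was 0.18, CDKN2B 0.28, LDLRAD4 0.82, NEDD4L 0.0067, PPM1A -0.02, TGFB2 -0.0032 and TGFBR2 0.0025. Without control replicate 6, ACVR2B was -0.34, DRAP1 0.42, NEDD4L 0.18, PPM1A -0.025, TGFB1 0.92, TGFB2 0.54 and TGIF1 0.17. Without control replicate 8, ACVR2B was 0.36, DRAP1 -0.35, NEDD4L -0.21, TGFB1 -0.47, TGFB2 -0.21 and TGIF1 -0.80.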
